A study of Mus musculus with 30 samples.

Results

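Bidirectional promoter lncRNAs are long noncoding RNAs that start beside a protein-coding gene and are transcribed away from it on the other strand. They were taken from the gene table as every gene that GENCODE vM21 gives this biotype, with the small nucleolar RNA host genes and *Gas5* and *Dancr* left out by name, which removed 0 genes. This gave 190 lncRNAs among 55487 genes. Each was set beside its opposite-strand protein-coding neighbour, called its partner here, if their start sites lay within 2 kb, which held for 188 lncRNAs. The RNA was read in 23 single mouse embryos from matings of *Dis3* het parents. At E2.5 there were 2 het embryos, 4 null embryos and 6 wild-type embryos, and E2.75 gave 5 het, 3 null and 3 wild-type. Null embryos carried the null allele on both chromosomes and het embryos on one, a CRISPR-Cas9 deletion of *Dis3* exons, and the parents of all 3 genotypes were het, so that maternal *Dis3* RNA and protein may have been present in each. POU6F1 binding was read by ChIP-seq in derived mouse embryonic stem cells (mESCs) transfected with *Pou6f1-mCherry*.

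Most active mammalian promoters start transcription in both directions. On the side of the coding gene, elongation is productive, whereas the RNA made on the other side usually ends early and is degraded in the nucleus by the RNA exosome, a ring of core subunits that works with the ribonucleases DIS3 and EXOSC10. RNA that accumulates upstream of promoters when the exosome is depleted is called PROMPT RNA. Some of these upstream transcripts are longer, spliced or polyadenylated and have been annotated as genes, which are the lncRNAs described here. RNA was captured with oligo-dT beads, so only RNA with a stretch of A bases is counted.

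The start sites of the 188 pairs lay a median of 116 bp apart, from 1 to 1488 bp. In 147 pairs the starts pointed away from each other, and in 41 they overlapped or coincided. The lncRNAs had a median exon length of 1218.5 bp, from 240 to 8887 bp, and 140 had a spliced transcript while 50 did not. Exons of 78 lncRNAs overlapped those of another gene. The reads were counted without strand, and a read wholly within exons shared with another gene was set aside as ambiguous. Such reads are in the count of neither gene. Reads of a coding gene from outside its annotated exons could still be counted to a lncRNA, which was not tested. The other 112 lncRNAs had no such overlap.

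The promoters of 4 pairs on which the results turn follow, 3 whose lncRNA was higher in null embryos, and the pair of *Pou6f1*. Each run goes from the base next to the partner's start site into the first 30 bases of the lncRNA, 5′ to 3′ on the lncRNA strand, read from GRCm38. Capitals mark GC boxes (GGGCGG or its complement CCGCCC), boxes of the letters CCAAT or ATTGG, and ETS cores (CGGAAG or CTTCCG). They lie at chr16:33380698-33380835 (minus strand, *1700007L15Rik* and *Zfp148*), chr17:29032539-29032627 (minus, *Gm16196* and *Srsf3*), chr10:11281192-11281329 (minus, *4930432B10Rik* and *Fbxo30*) and chr15:100599985-100600233 (plus, *Gm49492* and *Pou6f1*).

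1700007L15Rik: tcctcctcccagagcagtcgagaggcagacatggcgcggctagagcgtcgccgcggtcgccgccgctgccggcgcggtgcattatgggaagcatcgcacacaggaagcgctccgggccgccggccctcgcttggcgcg
Gm16196: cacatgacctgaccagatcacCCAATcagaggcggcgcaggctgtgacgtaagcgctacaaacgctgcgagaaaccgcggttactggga
4930432B10Rik: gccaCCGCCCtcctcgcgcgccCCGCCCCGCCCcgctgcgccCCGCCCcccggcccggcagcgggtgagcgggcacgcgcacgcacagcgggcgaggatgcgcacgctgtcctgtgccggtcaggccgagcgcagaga
Gm49492: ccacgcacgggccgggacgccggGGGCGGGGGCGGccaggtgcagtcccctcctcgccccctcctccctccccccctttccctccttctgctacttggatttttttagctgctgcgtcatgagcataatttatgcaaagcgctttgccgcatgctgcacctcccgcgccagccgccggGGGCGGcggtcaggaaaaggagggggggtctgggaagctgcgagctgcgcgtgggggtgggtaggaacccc

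Only short stretches separate the start sites, 108 bases for *1700007L15Rik* and *Zfp148* and 59 bases for *Gm16196* and *Srsf3*. The window of *4930432B10Rik* held 4 GC boxes, of which a pair share a base, and that of *Gm49492* held 3. A window of the same length and place at 21884 protein-coding genes held a GC box in 35.5% for the first and 41.0% for the second. *Gm16196* had 1 CCAAT box, which 15.2% of such windows hold. An ETS core, which 10.8% to 18.0% of such windows hold, lay in none of the 4, and *1700007L15Rik* had none of the 3 motifs. These matches describe letters only.

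Over all 190 promoters, from 250 bases before to 50 bases after the start, the median GC content was 67.3%, against 63.3% for 187 partner genes and 55% for 21884 protein-coding genes. A GC box lay in 67.9% of lncRNA promoters, 63.1% of partner promoters and 43.1% of protein-coding promoters. The letters TATAAA, on either strand, lay in 2.1% of lncRNA promoters and 12.7% of protein-coding promoters. Along the first 1 kb of the sense strand, the poly(A) signal AATAAA was found for 28.9% of lncRNAs and 16% of partners, and the 5′ splice site letters GGTAAG for 15.8% and 17.6%. Over protein-coding genes the shares were 24.4% and 29.4%. Among the 25 lncRNAs that were higher in null embryos, AATAAA was found in 9 and GGTAAG in 1. Among the 30 tested and not called, AATAAA was found in 7 and GGTAAG in 4.

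*Dis3* was the check of the labels. Levels are given as CPM, gene counts scaled to a common library total with TMM factors. The median of *Dis3* was 43.8 CPM in het embryos (30.4 to 59.2), 12.8 in null embryos (0 to 21.5) and 107 in wild-type embryos (18.0 to 147). Null and het embryos did not overlap, and the embryo labelled wild-type replicate 6 at E2.5 was the wild-type embryo at 18.0 CPM, inside the range of the null embryos. *Dis3* fell by 2.06 on the log2 scale in null against het embryos (adjusted p = 0.025, edgeR). Libraries held 1690192 to 14015980 gene counts, and null libraries were shallower (1690192 to 9993650). Reads outside annotated exons made up 32.3% to 43.9% in null embryos, 21.2% to 27.9% in het embryos and 21% to 33.4% in wild-type embryos, so this share moved with genotype as the lncRNAs did, and its part in the results was not tested. Cumulus cell markers, which mark maternal cells that can cling to an embryo, summed to 21.9 to 69.3 CPM in null, 8.4 to 39.7 in het and 12.9 to 38.0 in wild-type embryos. Over all embryos, *Amhr2* had 3503 counts and *Star* had 1056. *Has2* had 62, all in 1 embryo, and each of the rest had at most 34. Of those 10 genes, 2 had enough counts to test, 0 were called by edgeR or DESeq2 and 0 had an unadjusted p under 0.05, and the part of such cells was not tested. Oocyte markers summed to 21.9 to 106 CPM in null and 25.0 to 71.7 in het embryos, and of the 10 embryo markers, *Gata3* and *Krt18* were called lower. Of these 10, 6 had an unadjusted p under 0.05 (edgeR), 0 of them higher, and DESeq2 called 4 lower. Their median log2 fold change was -0.94, with 2 values positive. Fewer cells of a type and less RNA per cell cannot be told apart in whole embryos.

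As a group, the lncRNAs took a larger share of the counts in null embryos. As a plain share of library totals, without TMM factors, they had a median of 1396 CPM in null embryos (1012 to 2517), 397 in het embryos (343 to 548) and 411 in wild-type embryos (316 to 653). No null embryo overlapped the other embryos at either stage. After each library was thinned to 1690192 counts, 68 to 99 lncRNAs had at least 1 count in null embryos, against 30 to 62 in het and 33 to 56 in wild-type embryos. Of the 190, 33 had 0 counts in every embryo and 15 had counts in every embryo. Counts were seen only in null embryos for 14 lncRNAs, only in het embryos for 4 and only in wild-type embryos for 6. The genotypes differ in depth and in number of embryos, and the matching shares over all genes are not given. These numbers of lncRNAs are thus a description only.

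**Figure D1:**
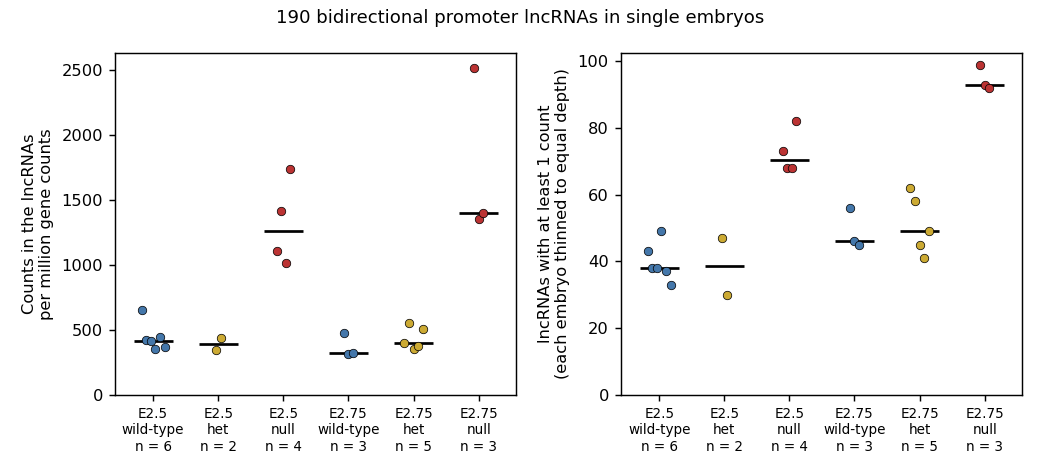
Share of gene counts that fell in the 190 lncRNAs (left, CPM) and number of lncRNAs with at least 1 count after thinning each library to 1690192 counts (right), by stage and genotype. Points are embryos and lines are medians, and the 7 null embryos lie above every het and wild-type embryo in both panels.

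The comparison of null with het embryos, with both stages merged, asks which RNA accumulates without DIS3. The 55 lncRNAs that passed the filter on low counts were tested with edgeR's quasi-likelihood test and called at an adjusted p under 0.1 with a log2 fold change beyond 1. Of these, 25 were called higher and 0 lower. At an unadjusted p under 0.05 there were 33 higher and 0 lower, and of all genes 1294 were higher. DESeq2, run with no such filter, called 47 of 157 lncRNAs higher and 1 lower, and 1247 of 33616 genes higher. Over all 13415 genes tested, 3.67% were called higher and 2.06% lower. The filter lets a gene pass through the null embryos alone, in which case it had to differ, so the count over the 55 is a description. With the filter set on het and wild-type embryos alone, 29 lncRNAs were tested, 10 were called higher and 0 lower. There, 298 of 12088 genes were called higher and 224 lower. With no filter, 157 lncRNAs were tested and 43 were called higher, against 1266 of 33616 genes, and 127 of the 157 had a positive log2 fold change. The remaining 135 lncRNAs, among them the 33 without a count, were not tested.

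Among the 55, the log2 fold changes of those called ran from 1.65 to 7.62, and 50 of the 55 values were positive. Their median was 2.52, against 0.02 over all genes. As the filter can be passed through null embryos alone, these values are a description too. With the filter set on het and wild-type embryos alone, 25 of 29 values were positive. The median was then 1.71, against -0.0053 over all genes. In other classes, 70 of 349 antisense genes were called higher (20.1%, median log2 fold change 1.31) and 72 of 389 lincRNAs (18.5%, median 1.05), and 183 of 11220 protein-coding genes were called higher (1.63%, median -0.06). These classes differ in level and were not compared by a test.

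**Figure D2:**
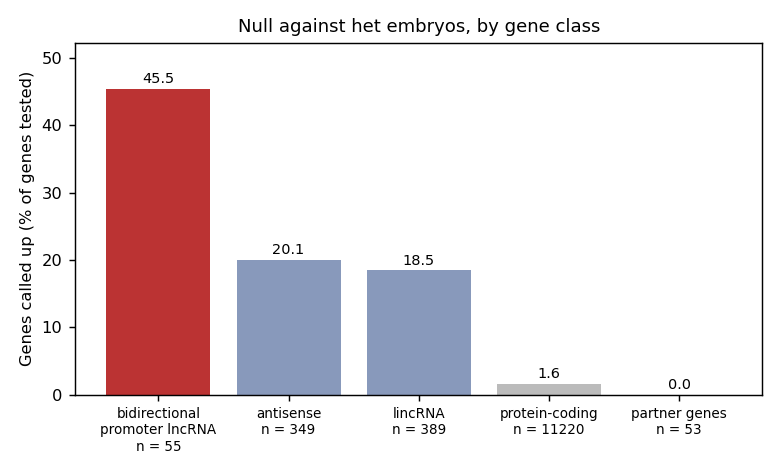
Percent of genes tested that were called higher in null against het embryos, by gene class, with the number tested under each bar. The share is 45.5% for the bidirectional promoter lncRNAs, 0% for their partner genes and 1.63% for all protein-coding genes, with genes that passed the filter through null embryos alone included.

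The lncRNA with the smallest p was *1700007L15Rik* (ENSMUSG00000097318, chr16:33379854-33380727, minus strand), the upstream transcript of *Zfp148*, which encodes a zinc finger transcription factor. Its level in null embryos was lowest at 93.7 CPM, with a median of 148 and a highest value of 308. In het embryos it was 8.84 to 20.9 CPM (median 9.78), and in wild-type embryos 5.24 to 44.9 (median 23.8). No null embryo overlapped another embryo. The log2 fold change was 3.70 ± 0.41 (SE) against het embryos, with an adjusted p of 1.53e-05 (edgeR). *Zfp148* had 61.1 to 238 CPM in null and 86.9 to 186 in het embryos, and its log2 fold change was 0.09 ± 0.28 (adjusted p = 0.914).

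*Gm16196* (ENSMUSG00000086154, chr17:29014642-29032568, minus strand) starts beside *Srsf3*, which encodes a serine- and arginine-rich splicing factor. It had 12.2 to 38.4 CPM in null embryos (median 20.5) and 0 to 0.860 in het embryos (median 0.249), where 2 of 7 embryos had no count. Wild-type embryos had 0 to 1.07 CPM, so the null embryos stood apart from all others. Its log2 fold change was 6.22 ± 0.96 (SE), with an adjusted p of 0.00038 (edgeR). *Srsf3* itself was abundant in every genotype, with medians of 513, 477 and 531 CPM in null, het and wild-type embryos and a log2 fold change of 0.50 ± 0.28 (adjusted p = 0.355).

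The lncRNA *Gm26549* (ENSMUSG00000097217) was also called higher. Its median was 47.6 CPM in null embryos (26.2 to 84.3) and 1.24 in het embryos (0 to 9.04), and wild-type embryos had 0.446 to 4.11 CPM. The null embryos again lay above all others. The log2 fold change was 4.46 ± 0.89 (adjusted p = 0.0039, edgeR).

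*E130317F20Rik*, beside the splicing regulator *Ptbp1*, had 44.3 to 244 CPM in null embryos (median 89.2) and 4.67 to 20.8 in het embryos (median 7.07). *E230013L22Rik*, beside the GTPase gene *Rab20*, had 15.9 to 125 CPM (median 49.8) against 1.16 to 5.23 (median 3.88). Null embryos lay above all others for both, with log2 fold changes of 3.61 and 3.88. The exons of both overlap those of the partner, by 295 and 356 bp, and reads wholly within the overlap are in neither count. The log2 fold change of the coding gene was -0.12 for *Ptbp1* and 0.27 for *Rab20*.

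*2810013P06Rik*, upstream of the chromatin regulator *Ankrd11*, was already present in het embryos, at 1.30 to 28.5 CPM (median 12), and reached 56.6 to 122 CPM in null embryos (median 72.9). *AV356131*, upstream of the phosphoinositide kinase gene *Pik3c2a*, rose from a median of 3.90 CPM (0 to 7.13) to one of 56.2 (26.2 to 90.7). Neither overlaps the exons of another gene, and for both the null embryos stood clear of every het and wild-type embryo. The log2 fold changes were 2.60 ± 0.56 and 3.77 ± 0.80. *Gm32031*, beside the histone chaperone gene *Spty2d1*, did so against het embryos only (15.8 to 134 against 2.74 to 15.4 CPM), since wild-type embryos reached 21.1 CPM.

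*4632427E13Rik* had the smallest change of the lncRNAs called. It had 116 to 267 CPM in null embryos (median 210), 33.8 to 95.1 in het embryos (median 63.9) and 26 to 151 in wild-type embryos (median 75.6). Null and het embryos did not overlap, but null and wild-type embryos did. The log2 fold change was 1.65 ± 0.30 (adjusted p = 0.0018, edgeR). Its partner *Rab30*, a GTPase of the Golgi apparatus, was the partner with the lowest value, at 0 to 1.7 CPM in null, 0 to 16.1 in het and 0 to 24.8 in wild-type embryos, with a log2 fold change of -3.26 ± 1.28 that missed the threshold (adjusted p = 0.166). Scaled by the ERCC spike-ins, which shifted the median of all genes by -1.08, the value of *4632427E13Rik* was 0.52 (adjusted p = 0.300).

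Another 6 of the named lncRNAs were near 0 outside null embryos. *Gm49586*, beside the sheddase gene *Adam17*, had 5.80 to 56.7 CPM in null embryos and at most 1.16 in het and 2.94 in wild-type embryos. *4930432B10Rik*, beside the F-box gene *Fbxo30*, had 303 counts in null embryos and 2 in het embryos, a ratio per gene count of 261 with an exact 95% interval for counting error of 71.7 to 2168. Both het counts were in E2.75 het replicate 5, without which it was at least 149-fold higher. *AC163629.1*, beside the ubiquitin ligase gene *Rnf8*, had 123 and 2 counts, a ratio of 106 (28.8 to 886), and without E2.75 het replicate 4 it was at least 64.9-fold higher. *D830050J10Rik*, *5830448L01Rik* (beside *Wapl*, the cohesin release factor) and *CT025867.1* (beside *Kctd20*) had medians of 9.55, 9.37 and 5.40 CPM in null embryos and of 0 in het embryos. For all 6, the lowest null embryo exceeded the highest of the het and wild-type embryos. Exons of *D830050J10Rik* and *CT025867.1* overlap those of a coding gene by 400 and 225 bp.

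**Figure D3:**
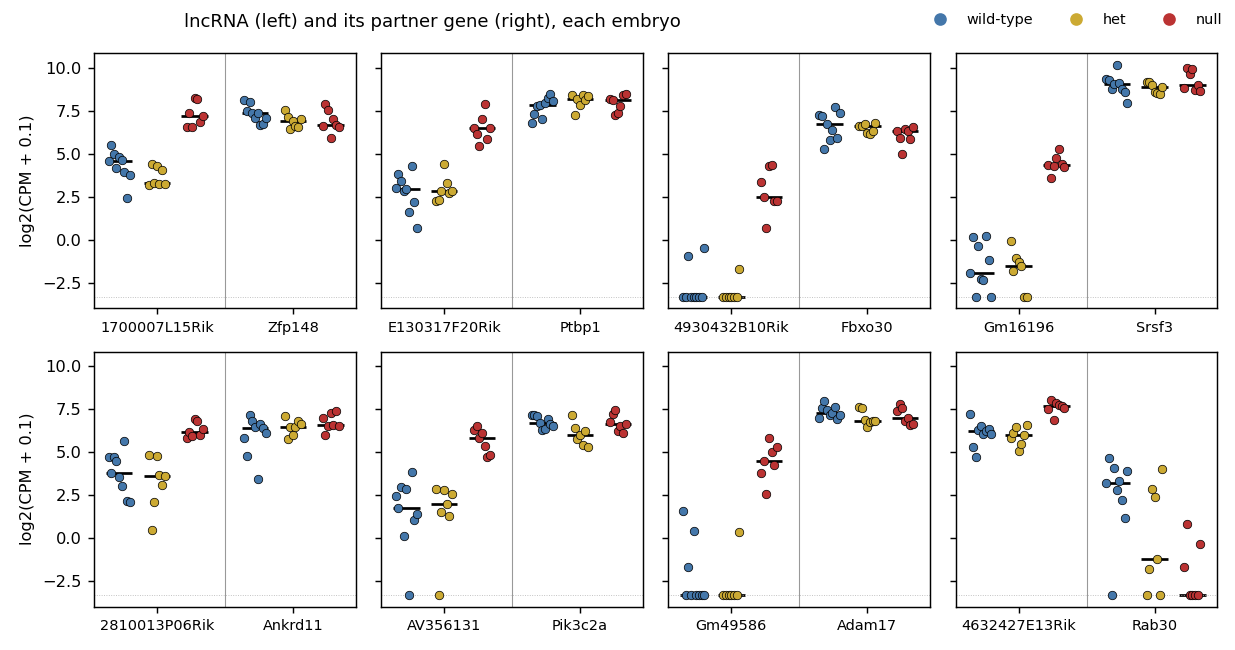
Level of 8 lncRNAs (left of each panel) and their partner genes (right) in each embryo, as log2(CPM + 0.1), with wild-type, het and null embryos from left to right and medians as lines and 0 CPM as a dotted line. The null embryos lie above every het embryo for the 8 lncRNAs and overlap them for the 8 partners.

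The 15 called lncRNAs named above were chosen by their p in this same contrast, so no second test of their levels is given. *1700120B22Rik*, which the filter had left out, was named for its POU6F1 peak. It had 0.611 to 18.7 CPM in null embryos, at most 0.324 in het and 0 in wild-type embryos. Its exons overlap those of its partner *Herc4* by 267 bp. The mean log2 CPM of this lncRNA was compared by an exact two-sided permutation test. Over all 3432 assignments of the 7 null and 7 het embryos p was 0.000583, the smallest possible. Over the 840 assignments within stages it was 0.00119, again the smallest, both unadjusted with 24 lncRNAs tested. Among the others named for their peaks, *Gm4890*, *D430020J02Rik* and *Gm10941* gave 0.388, 0.443 and 0.706 over all assignments in this test. The values of *4933412E12Rik* and *Gm4755* were higher still. Of the 55 lncRNAs tested, 18 had every null embryo above every het embryo (32.7%), against 2.2% of all genes tested, and 14 had no het or wild-type embryo that reached the lowest null embryo (25.5%), against 1.24%. Over all 190 lncRNAs these counts were 22 (11.6%) and 17 (8.95%), against 0.64% and 0.35% of all 55487 genes. The first shares rest on the filter, which a lncRNA can pass through null embryos alone. Without TMM factors, 20 and 16 of the 190 stood apart in these ways.

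Some lncRNAs had no count in het embryos at all and did not pass the filter. Chosen after their values were seen, *4930547M16Rik* had 204 counts in null and 0 in het embryos, at least 117-fold higher if 0 is taken to allow 3 counts over the group. Without E2.5 null replicate 1, which held the most of these counts, the bound was 48.8-fold. It had at least 0.692 CPM in every null embryo, and 7 of 9 wild-type embryos had none. E2.5 wild-type replicate 1 had 2.53 CPM, so null and wild-type embryos overlapped. *AC154291.1* had 124 and 0 counts, at least 71.3-fold higher, but E2.5 null replicate 3 had 0 CPM, as het embryos did.

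The lncRNAs were not uniform. Of the 30 tested and not called, *Gm20337*, beside the splicing factor gene *Srsf5*, was among the highest per kb of exon, with mean levels of 44.5 CPM per kb in null and 36.5 in het embryos. It had 35.3 to 65.3 CPM in null, 21.1 to 68.8 in het and 26.6 to 76.8 in wild-type embryos, which overlapped, and its log2 fold change was 0.29 ± 0.31 (adjusted p = 0.697, edgeR). *Ndufb1-ps*, beside the polyadenylation factor gene *Cpsf2*, had 27.8 to 120 CPM in null and 53.6 to 171 in het embryos and a log2 fold change of -0.09 ± 0.44 (adjusted p = 0.947). Its symbol is that of a pseudogene and its exons overlap *Cpsf2* by 147 bp, so its counts are uncertain. *Gm4890*, beside *Mmaa*, a gene of vitamin B12 metabolism, had a log2 fold change of 0.14 ± 0.96 against het embryos (adjusted p = 0.961). Against wild-type embryos, where it had at most 1.11 CPM, its value was 3.20 (adjusted p = 0.055), and it was called.

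By structure, 14 of 23 lncRNAs annotated with 1 exon were called higher and 11 of 32 with more. The count was 15 of 35 for lncRNAs without exon overlap and 10 of 20 for those with it, so calls were not limited to lncRNAs that share exons with another gene. Of those whose starts point away from the partner's, 23 of 48 were called, and of those with overlapping starts 2 of 7. These counts share the filter described above and were not tested.

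The next comparison sets each lncRNA against its own partner, which takes the depth of the embryo out of the value. Over 1503 divergent pairs of the annotation, the log2 CPM of the first gene minus that of its protein-coding neighbour was compared between null and het embryos with limma. Where both genes of a pair are coding, which is first is arbitrary, and so is the sign of the difference. The values over all pairs and over the other pairs are thus a mixed background. Of 53 lncRNA pairs tested, 33 were called higher and 0 lower, while 20.0% of all pairs were called higher and 5.66% lower. At an unadjusted p under 0.05 there were 36 higher and 0 lower. The pairs passed the same filter, so these counts are a description too. With the filter on het and wild-type embryos alone, 28 lncRNA pairs were tested, of which 13 were called higher and 0 lower, against 10.9% of all 1237 pairs called higher. Under the first filter, the lncRNA minus partner difference was positive in 50 of the 53, which is again a description. Its median was 2.36 on the log2 scale, against 0.24 in the other 1450 pairs. Among the pairs of smallest p, the difference was 5.93 ± 0.72 (SE) for *Gm49586* and *Adam17*. It was 5.18 ± 0.55 for *CT025867.1* and *Kctd20*, 5.11 ± 0.52 for *4930432B10Rik* and *Fbxo30* and 5.04 ± 0.52 for *Gm16196* and *Srsf3*, with adjusted p-values from 5.2e-07 to 1.9e-06 (limma).

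With TMM factors, few partners were called, and few protein-coding genes at large. Of 11220 protein-coding genes tested, 1.63% were called higher and 2.32% lower by edgeR. Near these shares, 0 of the 53 partners were called higher and 1 lower, *Mmaa*, whose log2 fold change was -1.15 (adjusted p = 0.0958). It had 2.82 to 21.6 CPM in null and 14.6 to 41.3 in het embryos, which overlapped. At an unadjusted p under 0.05, 3 partners were higher and 4 lower, and DESeq2 called 1 higher and 2 lower. Such a p was found for 1738 of the 11220 protein-coding genes, 766 of them higher. Among the partners of the 25 called lncRNAs, 0 were called in either direction by edgeR and 1 lower by DESeq2, and 4 had an unadjusted p under 0.05. The lowest adjusted p was 0.166, and 22 of 25 log2 fold changes lay within 1. They ranged from -3.26 for *Rab30* to 0.61 for *Pik3c2a*, with a median of 0.18. A value that misses the threshold does not show that a partner was the same in both genotypes. These calls also rest on the scaling. With ERCC scaling, 289 of 13415 genes were called higher and 4487 lower, and counts for the partners under it are not given.

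**Figure D4:**
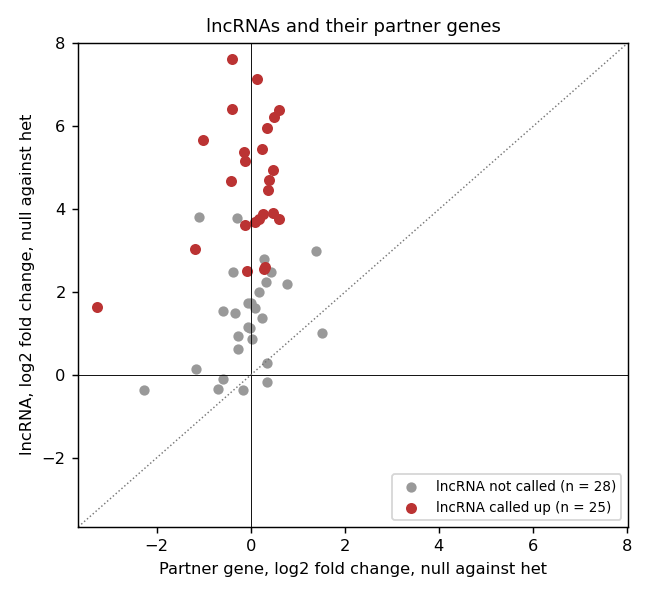
Log2 fold change in null against het embryos of the partner gene (horizontal) and of the lncRNA (vertical) for the 53 pairs tested, with the 25 called lncRNAs in red and equal change as a dotted line. The called lncRNAs lie between 1.65 and 7.62, and 22 of their partners lie within 1 of 0.

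Per kb of exon, the median level of the 25 called lncRNAs lay below that of their partners in het embryos and above it in null embryos. It was 0.392 CPM per kb in het embryos and 15.5 in null embryos, and that of their partners was 11.8 and 11.2. The lncRNA lay above its partner in 3 of 25 pairs in het, 3 in wild-type and 14 in null embryos. *1700007L15Rik* reached a mean of 237 CPM per kb in null embryos against 12.6 for *Zfp148*. *Gm16196* stayed below *Srsf3*, at 10.4 against 83.3. As the 25 were chosen for being higher in null embryos, the crossing is not a separate result. For the 30 tested and not called, the median was 1.26 CPM per kb in het and 4.09 in null embryos, below that of their partners in both (8.65 and 7.79), and the lncRNA lay above its partner in 9 of 30 pairs in het and 14 in null embryos. The capture of A-tailed RNA and read ends can differ between short and long transcripts, and this was not tested.

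Against wild-type embryos, 28 of the 55 were called higher in null embryos and 0 lower, with 3.66% of all genes called higher and 1.59% lower. At an unadjusted p under 0.05 there were 37 higher and 0 lower, and 1106 of 13415 genes were higher. DESeq2 called 48 of 157 lncRNAs higher and 1 lower, and 1187 of 33616 genes higher. This comparison shares the 7 null embryos and the fit with that against het embryos. With the filter set on het and wild-type embryos alone, 10 of 29 were called higher, against 265 of 12088 genes. Without the embryo labelled wild-type replicate 6 at E2.5, 24 were called. Between het and wild-type embryos, edgeR called 0 lncRNAs in either direction, as it called 0% of all genes. An unadjusted p under 0.05 was found for 8 of the 55 lncRNAs and for 934 of 13415 genes. DESeq2 called 1 of 157 lncRNAs higher, and 37 of 33616 genes. *1700007L15Rik* was among the 8, with a log2 fold change of -0.77 in het against wild-type embryos (adjusted p = 0.704), and *Gm4890* was another, at 3.06 (adjusted p = 0.537).

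By stage, 20 of 66 lncRNAs tested were called higher at E2.75 and 0 lower, where 2.51% of all genes were called higher and 2.31% lower. At an unadjusted p under 0.05 there were 33 higher and 0 lower, and 1168 of 14442 genes were higher. DESeq2 called 36 of 144 lncRNAs higher, and 956 of 28912 genes. These embryos are also part of the comparison with stages merged. Without null replicate 1 at E2.75, whose library held 1914128 counts, 6 lncRNAs were called higher. At E2.5, with 2 het embryos, 0 of 80 lncRNAs were called higher or lower by edgeR, with 0% of all genes called higher and 0.0126% lower. There, 31 had an unadjusted p under 0.05, 30 of them with a positive value, against 1473 of 15904 genes, 701 of them positive. DESeq2 called 23 of 130 lncRNAs higher, and 456 of 28283 genes. *1700007L15Rik* had 3.41 ± 0.63 at E2.5 (adjusted p = 0.170) and 3.85 ± 0.43 at E2.75 (adjusted p = 0.0014). The difference of the null effect between stages was called for 0 of 100 lncRNAs in either direction and for 0% of all genes. An unadjusted p under 0.05 was found for 4 lncRNAs, and for 1234 of 18677 genes. DESeq2 called 1 of 153 lncRNAs lower, and 57 of 32748 genes.

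In wild-type embryos, 1 of 100 lncRNAs was called higher at E2.75 than at E2.5 and 2 were called lower, against 3.74% and 3.64% of all genes. *Ndufb1-ps* had 97.8 to 248 CPM at E2.5 and 28.2 to 38.0 at E2.75, without overlap, and its log2 fold change was -2.29 ± 0.46 (adjusted p = 0.0047, edgeR). *1700007L15Rik* had 18.4 to 44.9 and 5.24 to 15.4 CPM, also without overlap, and a value of -1.35 ± 0.47 (adjusted p = 0.094). This call was lost with RLE factors (adjusted p = 0.126), with no filter (0.106), and without replicate 2, 3 or 5 at E2.5 or any of the 3 embryos at E2.75 (adjusted p from 0.126 to 0.343). With ERCC scaling, which moved the median of all genes by 0.89, the value was -0.35 (adjusted p = 0.684). *Gm49492* was listed at 0 in the 6 embryos at E2.5 and at 4.26, 0 and 0.507 CPM in the 3 at E2.75. Its call (adjusted p = 0.024) rests on replicate 1 at E2.75, without which 0 lncRNAs were called higher, and that library had the highest share of reads outside exons among wild-type embryos (33.4%).

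*Gm49492* (ENSMUSG00000116180, chr15:100600204-100602766, plus strand) is the upstream transcript of *Pou6f1*, whose protein is a POU and homeodomain transcription factor and the one studied by ChIP-seq. Its level was 2.38 to 13.3 CPM in null embryos (median 9.28), 0 to 5.31 in het embryos (median 0.106) and 0 to 4.26 in wild-type embryos (median 0). Null embryos overlapped one het embryo, E2.75 het replicate 3, and the highest wild-type embryo. The log2 fold change against het embryos was 2.98 ± 1.41 and was not called (adjusted p = 0.270, edgeR), and without that het embryo it was 4.95 (adjusted p = 0.0911). With stage as a term it was 5.50 (adjusted p = 0.0293). It was not called against wild-type embryos, at 4.00 (adjusted p = 0.105, edgeR). Within a stage, null against het embryos gave 6.66 at E2.5 (adjusted p = 0.515) and 2.77 at E2.75 (adjusted p = 0.360), also not called. The exact permutation test gave p = 0.00175 (two-sided, raw). *Pou6f1* had 17.7 to 78.4 CPM in null embryos (median 29.0), 7.99 to 34.9 in het embryos (median 15.8) and 3.34 to 55.2 in wild-type embryos (median 12.4), which overlapped, and its log2 fold change was 1.38 ± 0.54 (adjusted p = 0.169). The lncRNA minus partner difference of this pair was 2.22 ± 0.62 (adjusted p = 0.0112, limma).

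The genes of the machinery that removes such RNA were measured as context. Of 13 tested genes of the exosome core and its ribonucleases, *Dis3* was called lower and *Dis3l*, the cytoplasmic relative of *Dis3*, was called higher in null embryos by 2.73 on the log2 scale (adjusted p = 0.084, edgeR). *Dis3l* had 3.45 to 55.4 CPM in null and 0.422 to 6.03 in het embryos, which overlapped, and the embryo labelled wild-type replicate 6 at E2.5 had 37.2. Of 14 genes of nuclear decay adaptors and of 14 Integrator subunits, which end such transcripts, 0 were called in either direction by edgeR, with 3 and 0 at an unadjusted p under 0.05, and DESeq2 called 0 in both lists.

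POU6F1 peaks were compared with the promoters as a second readout that the gene lists did not use. The authors called peaks in each of 2 replicates against 2 controls, first IgG from the transfected cells and second the anti-mCherry ChIP of cells that carried mCherry alone. The samples hold 1 library of each control, so the replicates may share them and their peaks may not be independent. A consensus peak is one of replicate 1 that overlaps a peak of replicate 2, and no test was possible on presence alone. Within 1 kb of a start site, 147 of 190 lncRNAs (77.4%) had a consensus peak against either control, as did 146 of 187 partners (78.1%) and 47.8% of protein-coding genes, silent ones included. Among genes with enough counts to test in the embryos, the shares were 85.5% of the 55 lncRNAs and 73.9% of 11220 protein-coding genes. As the starts lie close together, a peak at one is mostly a peak at the other. The stricter set, present against both controls, held 45 lncRNAs (23.7%), 45 partners (24.1%) and 15.4% of protein-coding genes. Among genes tested the order was the other way, with 21.8% of lncRNAs and 27.0% of protein-coding genes. Against the second control, replicate 1 had 31348 peaks and replicate 2 had 3630. Absence from the stricter set thus does not show absent binding.

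A consensus peak lay at 21 of the 25 called lncRNAs (84.0%) and at 26 of the 30 tested and not called (86.7%), and against both controls at 4 and 8. Against the second control, replicate 1 had a peak at 25 of the 25 and 26 of the 30, and replicate 2 at 4 and 8. The highest fold enrichment at a lncRNA was 48.6 in replicate 1 and 16.9 in replicate 2 against the first control, at *D430020J02Rik* and *Ncapg2*, a condensin subunit gene (chr12:116405046-116405752 in replicate 1). Against the second control the values were 30.6 and 10.3. This lncRNA had 0 to 21 CPM in null and 0 to 9.04 in het embryos, which overlapped, and its log2 fold change was 1.62 ± 1.49 (adjusted p = 0.634, edgeR).

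The next folds against the first control in replicate 1 were 47.7 at *1700120B22Rik* (beside the ubiquitin ligase gene *Herc4*), 46.9 at *Gm10941* (beside the fucosyltransferase gene *Pofut2*) and 41.1 at *4933412E12Rik* (beside *Rab3ip*). They were 37.2 at *Gm4755* (beside the syndecan gene *Sdc1*) and 36.9 at *Gm4890* (beside *Mmaa*). The same promoters had 9.55, 16.6, 10.9, 16.7 and 16.6 in replicate 2. Of these, *Gm10941*, *4933412E12Rik* and *Gm4755* had at most 3.45, 0.415 and 5.40 CPM in null embryos and a median of 0. At the promoter of *Gm49492* and *Pou6f1* the fold was 10.9 in replicate 1 and 4.37 in replicate 2 against the first control. A peak against the second control was called there in replicate 1 only, with a fold of 7.15. The promoters of *1700007L15Rik*, *Gm16196* and *4930432B10Rik* had folds of 14.9, 16.8 and 10.9 against the first control in replicate 1. None of the 3 had a consensus peak against the second, for which the list of replicate 2 was short.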

How the data were processed

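RNA-seq libraries of 23 single *Dis3* embryos and POU6F1 ChIP-seq peak lists of 2 replicates in mESCs were analysed. The deposited RNA files hold the authors' whole-number count per gene, not normalized, which they made by trimming with cutadapt 3.4, aligning to GRCm38 with STAR 2.7.8a and counting with HTSeq 0.11.4 (intersection-strict, no strand). The authors aligned the ChIP-seq reads with Bowtie2 2.4.4 and called peaks with MACS2 2.2.7.1. Each deposited list holds a score, a ratio (the fold of the peak over its control) and the -log10 of a p and of a q, per peak. They give no read depth.

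Samples were grouped by genotype and stage from their labels. Gene biotypes, exons and start sites came from GENCODE vM21, which held 55227 of the 55487 gene identifiers. Spike-ins and summary lines stayed out of library sizes. Reads counted outside annotated exons were 21.0% to 43.9% of a library. Counts were tested with the quasi-likelihood test of edgeR 4.0.16 in R 4.3.3 (TMM normalization, filterByExpr, Benjamini-Hochberg adjustment over all genes tested, called at adjusted p under 0.1 and log2 fold change beyond 1). The 3 genotypes shared a fit with stages merged, each stage had its own fit, and 6 stage and genotype groups shared a fit for wild-type development and the stage difference. Pair differences of log2 CPM (prior count 2) were tested with limma 3.58.1. Single lncRNAs were tested with exact permutation tests in Python 3.11.15. Promoters were read from the genome with pysam 0.24.0, and 500 of 500 compared were identical to the RefSeq promoter table. The methods were tested on simulated data. P-values measure the spread between embryos. Count intervals cover counting error only, and a count of 0 was taken to allow 3 counts.

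Named lncRNAs were the 15 of smallest p called in null against het embryos, up to 5 called in each other comparison, the 6 of highest mean CPM per kb, the 5 pairs of smallest p, and the 6 with the highest POU6F1 fold. The lncRNAs and gene lists were chosen with earlier results of these data known. Alternatives were DESeq2 1.42.0, RLE and ERCC scaling, no filter, a replicate block, a stage term, fewer genotypes, embryos left out, and other peak and pair thresholds. Filters on het and wild-type embryos alone and the removal of doubted libraries were added after seeing the data. Input samples were not used here. Values of 2 partner genes, with the sequence and peak at 1 of their promoters, are not reported here.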

Additional observations from a re-analysis of the deposited data

Results flagged for a closer look

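Of 72 groups of 4 to 6 embryos of the 24 named lncRNAs, 15 held an embryo far from the others on the log2 scale. Chance flags about 1 in 20 groups, and a group in which all but 1 embryo is at or near 0 is flagged by construction. High against a group otherwise at or near 0 were *4930432B10Rik* at 0.413 CPM in E2.5 wild-type replicate 3 and 0.211 in E2.75 het replicate 5, *Gm49586* at 1.16 in E2.75 het replicate 5, *AC163629.1* at 0.355 in E2.75 het replicate 4, *CT025867.1* at 1.24 in E2.5 wild-type replicate 3 and *D830050J10Rik* at 1.16 in E2.5 wild-type replicate 6. So were *1700120B22Rik* at 0.324 in E2.75 het replicate 1 and *D430020J02Rik* at 3.22 in E2.5 null replicate 1. *Gm10941* had 0.104 in E2.5 null replicate 1, 1.89 in E2.5 wild-type replicate 4 and 0.166 in E2.75 het replicate 3, and *4933412E12Rik* had 0.104 in E2.5 null replicate 1 and 1.16 in E2.75 het replicate 3. *E230013L22Rik* was low in E2.75 het replicate 5, at 1.16 CPM, and *Ndufb1-ps* was high in E2.75 het replicate 2, at 162 CPM.

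Reads outside annotated exons, which no comparison used, had a median share of 39.5% in null embryos, against 25.9% in het and 24.3% in wild-type embryos.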

How the results depend on the processing

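Of the 303 counts and shares recomputed under alternatives, 255 stayed within 1.5 times of the reported value. The 15 named lncRNAs called in null against het embryos were called in the same direction in 350 of 351 refits, with the exception of *4632427E13Rik* with ERCC scaling (0.52, adjusted p = 0.300). Leaving out 1 embryo at a time gave 21 to 25 lncRNAs called higher and 0 to 1 lower in null against het embryos, and 24 to 32 higher and 0 to 1 lower against wild-type embryos. It gave 6 to 21 higher at E2.75, the lowest without null replicate 1, 30 to 40 pairs called higher, and 0 to 3 higher and 1 to 2 lower in wild-type development, the lowest without E2.75 replicate 1. In null against het embryos, DESeq2 called 47 higher and 1 lower, no filter gave 43 higher, the filter on het and wild-type embryos alone 10 higher, and ERCC scaling 21 higher and 2 lower, with 43 of 55 values positive and a median of 2.44 above the all-gene shift of -1.08. Against wild-type embryos, DESeq2 called 48 higher and 1 lower, no filter 60 higher and 1 lower, and the filter on het and wild-type embryos 10 higher, while leaving out the 2 shallowest E2.75 null embryos gave 1 lower. DESeq2 called 1 higher in het against wild-type embryos. At E2.5, DESeq2 called 23 higher, no filter 2, and ERCC scaling 4 higher and 1 lower. At E2.75, no filter called 35 higher, DESeq2 36, and ERCC scaling 1 lower. In wild-type development, RLE factors gave 1 lower, ERCC scaling 9 higher and 1 lower, no filter 4 higher, and DESeq2 2 higher and 4 lower. DESeq2 called 1 lower for the stage difference. No filter gave 53 pairs called higher, and the filter on het and wild-type embryos alone 13. The share of lncRNAs with a consensus peak was 56.8% at a -log10 q of at least 5 and 23.7% against both controls. The cause of these changes was not tested, except that the filters change which genes are tested.

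The labels do not say whether embryos of 1 number within a stage shared more than that number. The correlations of their deviations from group means ran from -0.106 to 0.0858 over 17 pairs. Groups as small as 2 embryos limit what these correlations can show. With the replicate number as a block, paired fits called 21 lncRNAs higher in null against het embryos, 22 against wild-type embryos, 5 at E2.75, 2 higher and 1 lower in wild-type development, and 31 pairs higher. In wild-type development it lost the calls of *1700007L15Rik* (-1.31, adjusted p = 0.200) and *Gm49492* (5.67, adjusted p = 0.140).

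Among named lncRNAs that were not called, 11 values changed sign. *Gm4890* was at -1.20 with ERCC scaling, -0.00585 with no filter, and from -0.15 to -0.07 without E2.5 null replicate 3, E2.75 het replicate 3 or E2.75 het replicate 4. *Gm20337* was at -0.81 with ERCC scaling. *Ndufb1-ps* was called lower at -1.23 with ERCC scaling (adjusted p = 0.0112), and was at 0.081 with the replicate block and at 0.02 to 0.13 without E2.5 het replicate 2, E2.75 het replicate 2, or E2.75 null replicate 2 or 3. Over all embryos left out in turn, *Gm4890* ran from -0.15 to 0.43 and *Ndufb1-ps* from -0.21 to 0.13. Depth limits what is said of the 135 lncRNAs not tested, and the null libraries held 1690192 to 9993650 counts against 3009380 to 14013185 in het embryos, so a lncRNA without counts was not detectable at this depth and is not shown to be absent.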
